A study of Mus musculus with 12 samples.

Results

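The genes described here are S100b, gliomedin (Gldn), Clstn3, Mbp, Sox10, Ngfr and Th, 7 of the 25124 genes in the expression table, and they were found in it by their symbols. S100b and Gldn were chosen by their genotype differences, being much lower in Txnip-/- mice, so these values are descriptions without a test. Clstn3 stands beside them as a gene of brown adipocytes, and the other members mark Schwann cells and sympathetic nerve. RNA was sequenced from interscapular brown adipose tissue (BAT) of male mice aged 10 weeks, 3 libraries from each of 4 groups. The groups were wild-type (WT) mice at 23 °C (room temperature, RT), Txnip-/- mice at RT, WT mice at 30 °C (thermoneutrality, TN) and Txnip-/- mice at TN, with 1 week of acclimation at either temperature. Txnip encodes thioredoxin-interacting protein, and the knockout is whole-body, so every cell type of the tissue lacks it. Expression is given as TPM, a transcript's share of all transcripts in the library after correction for length.

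S100b is a small calcium-binding protein of glia, known above all from astrocytes and Schwann cells. Thermogenic adipocytes also make and release it, with the help of calsyntenin 3β, an adipocyte product of the Clstn3 locus, and there it promotes the growth of sympathetic fibers into the tissue. Gliomedin is a secreted olfactomedin protein that Schwann cell microvilli use to gather sodium channels at the node of Ranvier. BAT is densely supplied by sympathetic axons, which are wrapped by Schwann cells, while the neurons' cell bodies lie in ganglia outside the fat. Their mRNA is therefore not expected in quantity in the tissue itself.

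The sequences around the start sites of S100b, Gldn and Clstn3 are shown because the largest genotype differences among the members were theirs. Each is the RefSeq promoter of build GRCm38.p6, from 250 bases before to 50 after the start, printed 5′ to 3′ on the gene's strand, and Clstn3 has an upstream and a downstream start. Capitals mark a CCAAT box (CCAAT, or ATTGG on the other strand), a GC box (GGGCGG, or CCGCCC on the other strand) or a cAMP response element (TGACGTCA, the same on both strands).
S100b, chr10:76253586-76253885, + strand: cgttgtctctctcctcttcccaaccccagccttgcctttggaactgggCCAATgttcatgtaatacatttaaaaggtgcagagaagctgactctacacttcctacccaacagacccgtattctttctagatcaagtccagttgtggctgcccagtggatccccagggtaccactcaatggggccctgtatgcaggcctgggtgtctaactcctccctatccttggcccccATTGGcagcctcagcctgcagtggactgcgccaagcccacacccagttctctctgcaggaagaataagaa
Gldn, chr9:54286236-54286535, + strand: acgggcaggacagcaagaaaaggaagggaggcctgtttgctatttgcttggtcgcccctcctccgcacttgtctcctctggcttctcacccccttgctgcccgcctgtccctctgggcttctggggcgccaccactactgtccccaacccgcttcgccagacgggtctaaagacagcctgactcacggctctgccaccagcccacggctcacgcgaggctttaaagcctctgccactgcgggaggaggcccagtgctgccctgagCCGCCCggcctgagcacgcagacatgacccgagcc
Clstn3 upstream start, chr6:124464735-124465034, - strand: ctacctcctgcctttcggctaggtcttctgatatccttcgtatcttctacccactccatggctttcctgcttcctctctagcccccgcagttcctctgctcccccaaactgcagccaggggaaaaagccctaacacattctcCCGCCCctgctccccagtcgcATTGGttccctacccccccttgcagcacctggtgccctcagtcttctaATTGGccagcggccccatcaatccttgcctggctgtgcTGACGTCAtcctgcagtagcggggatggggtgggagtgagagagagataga
Clstn3 downstream start, chr6:124462695-124462994, - strand: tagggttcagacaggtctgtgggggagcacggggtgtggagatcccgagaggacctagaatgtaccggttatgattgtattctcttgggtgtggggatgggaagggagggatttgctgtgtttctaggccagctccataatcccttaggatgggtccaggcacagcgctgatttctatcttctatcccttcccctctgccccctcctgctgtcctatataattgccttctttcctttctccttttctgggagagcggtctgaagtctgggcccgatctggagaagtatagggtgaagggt
The S100b window held 2 CCAAT boxes, the Gldn window 1 GC box, and the upstream Clstn3 window 2 CCAAT boxes, 1 GC box and 1 cAMP response element. Of 32851 mouse promoters of this length, 37.4% held a CCAAT box, 35.7% a GC box and 1.79% a cAMP response element. The downstream Clstn3 window, at whose start the counted Clstn3 transcript begins, held none of these (both strands searched). Which of the Clstn3 starts serves the adipocyte product was not determined. The E-box CACGTG, the TATA box TATAAA and the C/EBP core TTGCNNAA were in none of the 4 windows, beside 7.15%, 13.6% and 10.8% of all promoters. Of the motifs searched, none was shared by all 3 genes.

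The libraries held about 29930000 to 47440000 reads. Txnip was at 564 to 694 TPM in RT WT and 1072 to 1238 TPM in TN WT, against 24.8 to 35.4 and 10.5 to 14.4 TPM in Txnip-/- mice, in accord with every genotype label. Brown adipocyte genes (10 listed) were detected in all libraries. Of 19 Schwann cell genes other than S100b, 14 had a mean of at least 1 TPM, whereas 2 of 24 sympathetic neuron genes did. The 3 libraries RT WT replicate 2, RT Txnip-/- replicate 3 and TN Txnip-/- replicate 3 were rich in myelin RNA, with Mbp at 26.2, 19.9 and 28.0 TPM against 7.04 to 17.1 TPM in the others. Muscle RNA also differed between the groups. The sum over 10 skeletal muscle genes was 2.66 to 3.24 TPM in RT WT and 23.2 to 58.6 TPM in RT Txnip-/-, and at TN it reached 18.9 TPM in WT replicate 2 and 18.1 TPM in Txnip-/- replicate 2, the other 4 TN libraries being lower. Macrophage genes (8 genes) summed to 59.3 to 67.7, 100.4 to 168.3, 133.1 to 238.4 and 382.2 to 535.3 TPM in WT and Txnip-/- mice at RT and then at TN, and fibroblast genes (6 genes) to 193.5 to 243.5, 234.4 to 284.6, 328.3 to 439.2 and 739.8 to 748.3 TPM. The part of these cells in the results below was not tested.

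S100b was highest in RT WT mice and lower in all other groups. The 3 libraries held 71.2, 69.4 and 75.7 TPM in WT and 19.1, 23.2 and 28.0 TPM in Txnip-/- mice at RT, and 45.5, 42.2 and 31.6 TPM in WT and 15.04, 15.5 and 23.3 TPM in Txnip-/- mice at TN. No Txnip-/- library reached the lowest WT library of its temperature. The means were 72.1 ± 3.21 TPM (SD, n = 3) in RT WT, 39.8 ± 7.29 TPM in TN WT, 23.4 ± 4.43 TPM in RT Txnip-/- and 17.9 ± 4.64 TPM in TN Txnip-/-. In this order each group stood clear of the next, except that the ranges of the 2 Txnip-/- groups overlapped. Without Txnip, S100b was at 32.5% of the WT mean at RT and 45.1% at TN. The log2 fold change on the log2(TPM + 1) scale was -1.60 at RT and -1.12 at TN. Without the 3 myelin-rich libraries these values were -1.75 and -1.31, and without the 2 TN libraries with muscle RNA the TN value was -0.98. In whole tissue, fewer cells of a type and less RNA per cell cannot be told apart.

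**Figure D1:**
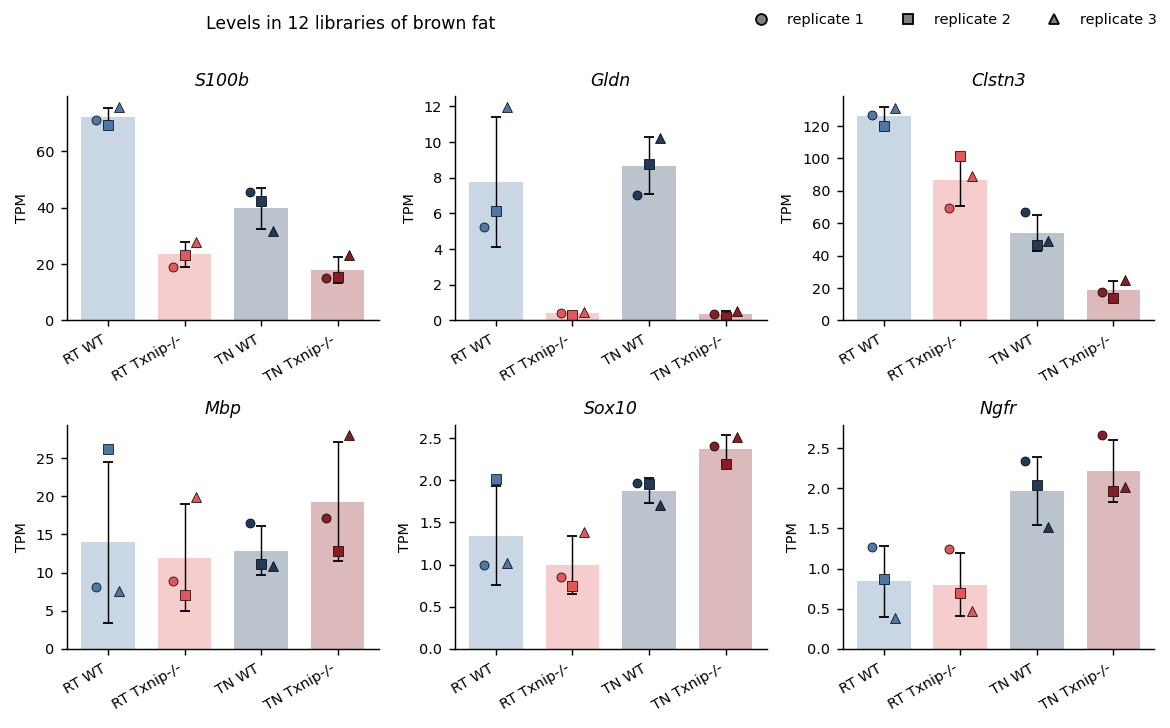
Expression in TPM (vertical axes, from 0) of S100b, Gldn, Clstn3, Mbp, Sox10 and Ngfr in the 4 groups (horizontal axes), with circles, squares and triangles for replicates 1, 2 and 3, bars for means and lines for SD (n = 3). S100b falls from 72.1 TPM in RT WT to 17.9 TPM in TN Txnip-/-, Gldn is under 1 TPM in all Txnip-/- libraries, and Mbp, Sox10 and Ngfr do not follow either pattern. Th, at or near 0 in all libraries, is not drawn.

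S100b was also lower at TN than at RT in WT mice, a contrast that the choice of S100b did not use but that shares the WT libraries with the genotype differences. It fell by 0.86 on the log2 scale (SE 0.18) from RT to TN, to 55.2% of the RT mean (limma, adjusted p = 0.00241). All 3 TN WT libraries lay below all 3 RT WT libraries. In this contrast 37.8% of 12486 genes were called, with 6.39% called lower, where a called gene differed by more than 25% upward or 20% downward at an adjusted p under 0.05. In Txnip-/- mice the difference was -0.38 (SE 0.18), with a 95% interval of -0.77 to 0.01, and was not called (limma, adjusted p = 0.0945). The median of all tested genes rose by 0.18 in WT and 0.15 in Txnip-/- mice, and after median centring the S100b values were -1.04 in WT and -0.57 in Txnip-/- mice (limma, adjusted p = 0.0012 and 0.0206). In Txnip-/- mice S100b was also called without RT replicate 1 (-0.51) and without TN replicate 3 (-0.57). The genotype difference was smaller at TN than at RT by 0.48 on the log2 scale, given here as a description.

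Clstn3 was lower at TN than at RT in both genotypes, and at TN it was lower without Txnip. It was at 127.0, 119.9 and 131.2 TPM in WT and 69.4, 101.8 and 89.4 TPM in Txnip-/- mice at RT, and 66.7, 46.4 and 49.0 TPM in WT and 17.4, 13.7 and 25.1 TPM in Txnip-/- mice at TN. The ranges of the 4 groups did not overlap. At TN, Clstn3 was lower in Txnip-/- mice with a log2 fold change of -1.501 (SE 0.21), and this was called (limma, adjusted p = 0.0081). Of 12891 genes tested at TN 8.66% were called, 2.17% as lower. Without TN WT replicate 2 and TN Txnip-/- replicate 2, the libraries with muscle RNA, the value was -1.41 and the call was lost (limma, adjusted p = 0.0501). At RT the log2 fold change was -0.55 (SE 0.13), with a 95% interval of -0.85 to -0.24, and was not called (limma, adjusted p = 0.1001), where 1.49% of 11980 genes were called.

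From RT to TN Clstn3 fell in both genotypes, with log2 fold changes of -1.22 (SE 0.20) in WT and -2.18 (SE 0.20) in Txnip-/- mice (limma, adjusted p = 0.000656 and 1.66e-05). In Txnip-/- mice 39.2% of 12486 genes were called, 8.27% as lower. The genotype differences at the 2 temperatures differed by -0.95 (SE 0.28, limma interaction, adjusted p = 0.229), and 1 gene of 12486 (0.00801%), Txnip itself, was called in that test. The expression table counts Clstn3 on a transcript of 3681 bases at chr6:124430761-124462744 of mm10, and neuronal and adipocyte transcripts of the locus were not separated. Its relatives are vesicle proteins of neurons and other cells. Clstn1 rose from RT to TN in both genotypes, with log2 fold changes of 0.43 in WT and 0.42 in Txnip-/- mice (limma, adjusted p = 0.000883 and 0.000768). By genotype Clstn1 was not called, at -0.09 at RT and -0.10 at TN. Clstn2 was under 0.4 TPM in all libraries and was not tested.

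S100b and Clstn3 kept no fixed proportion over the 4 groups. The log2 ratio of S100b to Clstn3 was -0.81 ± 0.03 (SD, n = 3) in WT and -1.89 ± 0.23 in Txnip-/- mice at RT, and -0.44 ± 0.27 and -0.05 ± 0.20 at TN. The ratio was thus lowest in RT Txnip-/- mice, where S100b was low while Clstn3 remained at 68.9% of its RT WT mean. Set against the mean of 10 brown adipocyte genes on the log2(TPM + 1) scale, S100b was at -2.87 ± 0.16 in WT and -4.46 ± 0.35 in Txnip-/- mice at RT, and -3.46 ± 0.26 and -4.16 ± 0.25 at TN. Set against the mean of 19 Schwann cell genes on the same scale, it was at 4.85 ± 0.20, 3.34 ± 0.28, 3.72 ± 0.23 and 2.38 ± 0.30 in the same order. Against either set, the 3 Txnip-/- libraries were lower than the 3 WT libraries at each temperature. Neither set was a fixed reference. The brown adipocyte mean was 9.06 and 9.05 in WT and Txnip-/- mice at RT, and 8.80 and 8.37 at TN. At TN 8 of the 10 genes had lower and 2 higher values without Txnip. Ucp1 and Cidea were called lower, where 2.17% of all tested genes were. The Schwann cell mean was 1.615 in WT and 1.84 in Txnip-/- mice at TN. The TN differences of S100b from either set therefore also hold the shifts of these means.

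**Figure D2:**
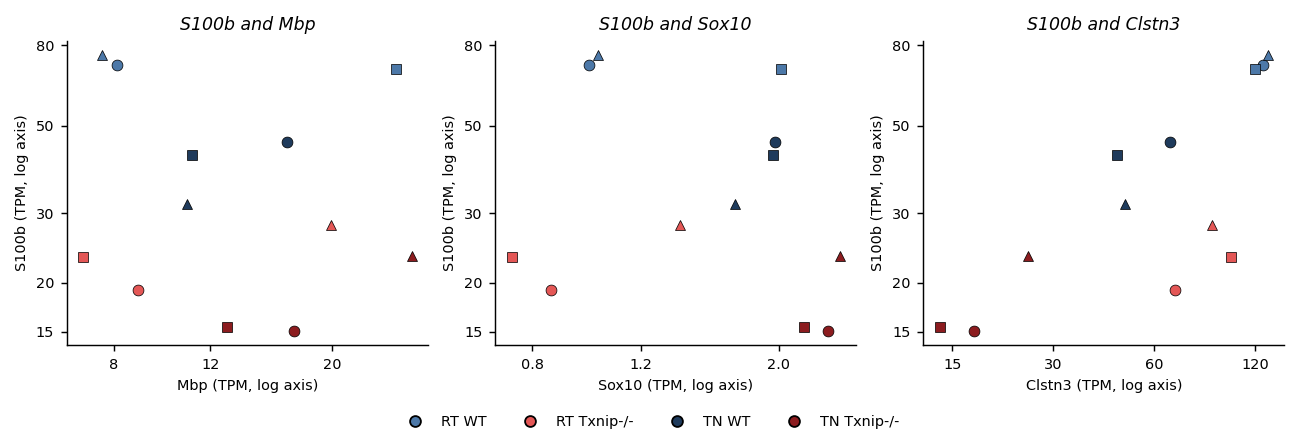
S100b (vertical axes) against Mbp, Sox10 and Clstn3 (horizontal axes), all in TPM on log axes, with 1 point per library, colors for the 4 groups and circles, squares and triangles for replicates 1, 2 and 3. RT WT replicate 2, with Mbp at 26.2 TPM, has S100b at 69.4 TPM, beside 71.2 and 75.7 TPM in the other RT WT libraries, and the S100b ranges of the 2 Txnip-/- groups overlap.

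Gldn was far lower in Txnip-/- mice at both temperatures and was not called by temperature in WT mice. It was at 5.24, 6.11 and 11.96 TPM in RT WT and 7.06, 8.77 and 10.2 TPM in TN WT mice, with overlapping ranges. In Txnip-/- mice it was at 0.42, 0.32 and 0.46 TPM at RT and 0.37, 0.19 and 0.52 TPM at TN, so each Txnip-/- library was under 1 TPM. The mean without Txnip was 5.14% of WT at RT and 4.14% at TN. The log2 fold changes on the log2(TPM + 1) scale were -2.57 and -2.83, and with a pseudocount of 0.1 in place of 1 they were -3.89 and -4.31, since the added 1 exceeds the Txnip-/- levels. Without the 3 myelin-rich libraries they were -2.72 and -2.91. From RT to TN, Gldn differed by 0.21 (95% interval -0.29 to 0.70) in WT mice and was not called (limma, adjusted p = 0.471). Gldn of Txnip-/- mice lay below the added 1 at both temperatures and passed the filter on low values only through the WT groups, so no temperature test is given there. Without RT WT replicate 3, whose 11.96 TPM was the highest in its group, Gldn was called higher at TN in WT mice (0.53). The gene lies at chr9:54286486-54341777 of mm10, its counted transcript has 4637 bases, and no exon of another gene overlaps it.

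No other gene of the node of Ranvier was called lower by genotype. Of the 15 others listed, 6 were under 0.1 TPM on average, among them Nfasc, the axonal partner of gliomedin, which reached 0.21 TPM at most. At RT 3 of them were tested and none was called by genotype (limma, 1 at an unadjusted p under 0.05, as were 1921 of all 11980 genes), and at TN 5 were tested and 1 was called, beside 1.49% and 8.66% of all tested genes. This was Ezr, encoding the microvillus protein ezrin, which was higher without Txnip (log2 fold change 0.80, SE 0.12, limma, adjusted p = 0.00841) and which many other cell types also express. Without the 2 TN libraries that held muscle RNA Ezr was at 0.84 and was not called (limma, adjusted p = 0.0501). Cntnap1, which holds the paranodal junction together, was lower in Txnip-/- mice by values that were not called, -0.37 at RT and -0.30 at TN (limma, adjusted p = 0.191 and 0.0788). It fell from RT to TN in both genotypes, by 0.76 on the log2 scale in WT and 0.69 in Txnip-/- mice (limma, adjusted p = 0.00031 and 0.000349), and 233 exon bases overlap Plekhh3 on the opposite strand. Ezr rose from RT to TN in both genotypes (0.63 in WT, 1.12 in Txnip-/-), and Ank3, the scaffold of nodal channels, was called higher in Txnip-/- mice. Rdx, a relative of ezrin, was at 48.8 to 65.5 TPM in all libraries and was not called in any contrast.

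Sox10, the transcription factor that defines Schwann cells, showed no called difference by genotype. It was at 0.99, 2.02 and 1.02 TPM in WT and 0.86, 0.74 and 1.38 TPM in Txnip-/- mice at RT, and 1.97, 1.96 and 1.70 TPM in WT and 2.40, 2.20 and 2.51 TPM in Txnip-/- mice at TN. The genotypes overlapped at RT, and at TN all Txnip-/- libraries were above all WT libraries. The log2 fold change was -0.22 at RT (95% interval -0.69 to 0.25) and 0.23 at TN (-0.0019 to 0.46), and neither was called (limma, adjusted p = 0.654 and 0.199). From RT to TN Sox10 rose in Txnip-/- mice by 0.77 (SE 0.16, limma, adjusted p = 0.00234), while in WT mice the value was 0.32 (SE 0.16, adjusted p = 0.12). The difference between these temperature changes was 0.45 (SE 0.23) and was not called (limma, adjusted p = 0.447). In WT mice Sox10 was called as well without the myelin-rich RT replicate 2 (0.52).

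Mbp, a structural protein of compact myelin, was not called in any contrast. It was at 8.12, 26.2 and 7.62 TPM in WT and 8.86, 7.04 and 19.9 TPM in Txnip-/- mice at RT, and 16.6, 11.1 and 10.9 TPM in WT and 17.1, 12.9 and 28.0 TPM in Txnip-/- mice at TN. Each of 3 groups held 1 library well above the others, and the genotypes overlapped at both temperatures. The genotype difference was -0.12 at RT (95% interval -1.31 to 1.07) and 0.51 at TN (-0.10 to 1.12), and neither was called (limma, adjusted p = 0.939 and 0.277). The temperature differences, 0.08 in WT and 0.71 in Txnip-/- mice, were not called either (limma, adjusted p = 0.896 and 0.212), and the first changed sign under median centring (-0.10).

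Among 35 Schwann cell and myelin genes other than S100b, 18 were tested at RT, and none was called (limma, 0 at an unadjusted p under 0.05). Of all 11980 genes tested at RT 1.49% were called, and 1921 were at an unadjusted p under 0.05. Of the 18 glial genes 15 had lower and 3 higher values without Txnip, and their median was -0.12 on the log2 scale beside 0.03 over all tested genes. At TN 22 were tested, all 22 with higher values in Txnip-/- mice, and their median was 0.33 beside 0.01 over all genes. Of the 22, 4 were called higher, where 6.49% of all tested genes were. These were Cadm4, an adhesion molecule of the Schwann cell surface facing the axon (0.49, SE 0.11), Matn2, a matrix protein (0.53, SE 0.10), Gpm6b, a membrane glycoprotein of glia and neurons (0.55, SE 0.11), and Cnp, an enzyme of myelinating cells (0.50, SE 0.08). Their adjusted p-values (limma) were 0.0286, 0.0154, 0.023 and 0.0106. Cnp was at 9.84, 9.32 and 9.67 TPM in TN WT and 14.1, 12.8 and 15.2 TPM in TN Txnip-/- mice, and the other 3 likewise showed no overlap between these groups. Macrophage and fibroblast RNA was also higher in TN Txnip-/- mice, as given above. With each library left out in turn, the myelin-rich Txnip-/- replicate 3 among them, or without the 2 TN libraries that held muscle RNA, 7 fits were made. The call was lost in 4 for Gpm6b, 2 for Matn2 and 1 for Cnp, and for Cadm4 in all but the fit without Txnip-/- replicate 2. In the fit without the libraries with muscle RNA, of 4 libraries, none of the 35 was called. There the 4 values were 0.54 to 0.62, and calls over all genes went from 1116 to 130.

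**Figure D3:**
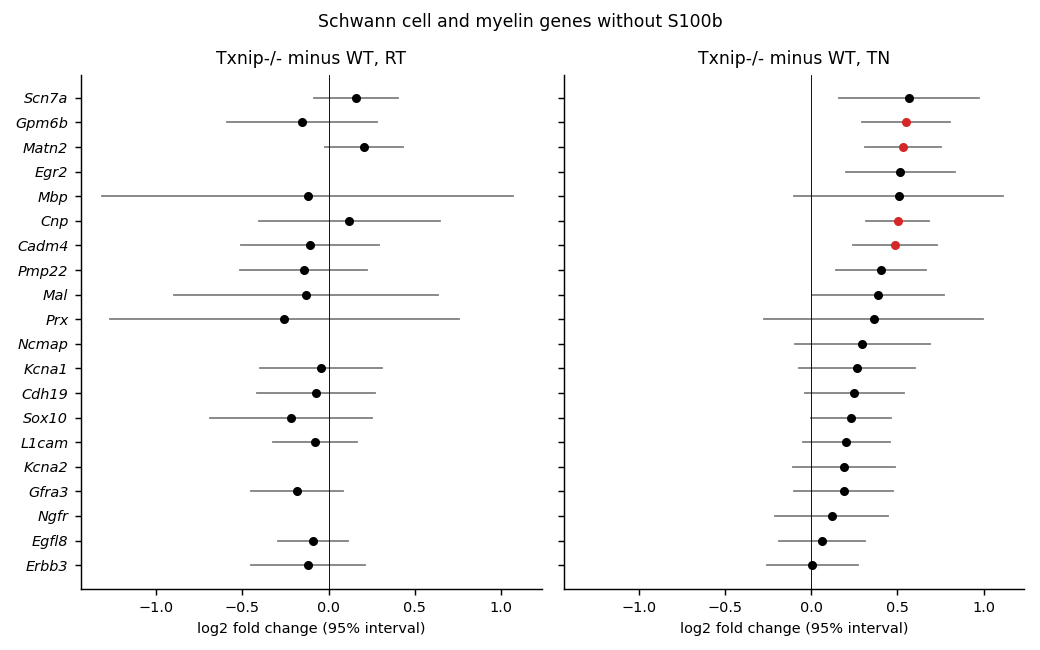
Log2 fold changes of Txnip-/- over WT mice (horizontal axes, points) with 95% intervals (lines) at RT and TN for 20 of the 22 Schwann cell and myelin genes tested at TN, S100b left out. Red points are called, rows without a point were not tested at RT, and all 20 points lie above 0 at TN, while the widest RT interval belongs to Mbp.

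Of the Schwann cell and myelin genes other than S100b, 20 were tested by temperature, and in WT mice 5 of them were called higher at TN, namely Cnp, the neuregulin receptor Erbb3, the GDNF family receptor Gfra3, the potassium channel Kcna2 and Ngfr, and none was called lower. Of all tested genes 31.4% were called higher in WT, a larger share than among these 20. In Txnip-/- mice all 20 had higher values at TN and 15 were called, where 30.9% of all tested genes were called higher, and these included Sox10, Pmp22 (0.61), Cdh19, L1cam, Scn7a (0.75), Kcna1 and the 5 genes called in WT. The median was 0.20 in WT and 0.73 in Txnip-/- mice, beside the 0.18 and 0.15 of all tested genes. In the same contrast in Txnip-/- mice all 8 macrophage, all 6 fibroblast and all 7 endothelial genes listed were called higher, with medians of 1.52, 1.35 and 0.58. After median centring 3 genes were called in WT and 12 in Txnip-/- mice, and without the 3 myelin-rich libraries 10 and 17 were. In the test of the difference between genotypes none of 20 was called (limma, 6 at an unadjusted p under 0.05). Of all 12486 genes in that test 1 was called, and 1571 were at an unadjusted p under 0.05. S100b, the only Schwann-listed gene called lower at TN in WT mice, thus moved the other way from the 5 that were called higher.

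**Figure D4:**
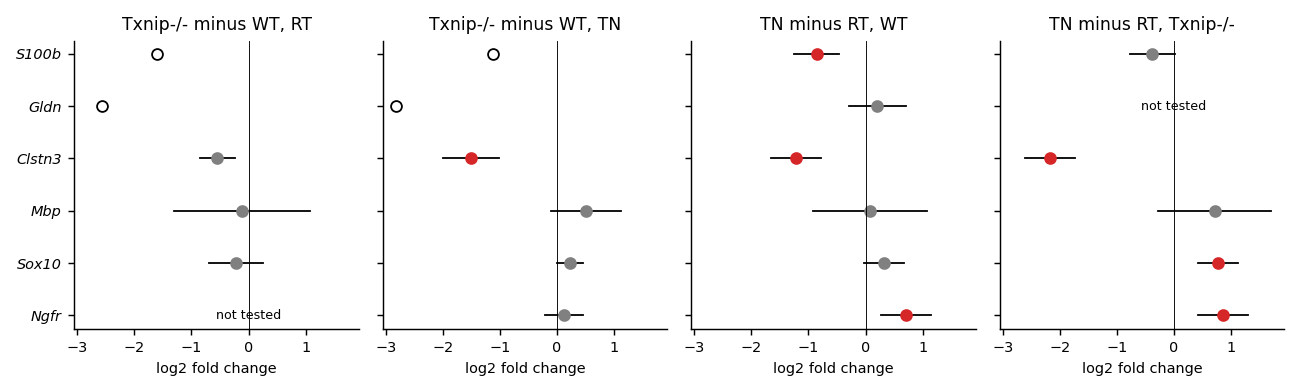
Log2 fold changes (horizontal axes) of 6 genes for Txnip-/- over WT at RT and TN and for TN over RT in WT and Txnip-/- mice, with 95% intervals as lines. Red points were called, gray points were not, and open points without intervals mark S100b and Gldn in the contrasts by which they were chosen. Ngfr was not tested by genotype at RT nor Gldn by temperature in Txnip-/- mice, and the temperature panels show S100b and Clstn3 left of 0 and Sox10 and Ngfr right of it.

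Ngfr, the p75 receptor that binds all neurotrophins and is carried by Schwann cells and sympathetic axons, was higher at TN than at RT in both genotypes. It was at 1.27, 0.87 and 0.39 TPM in WT and 1.24, 0.70 and 0.47 TPM in Txnip-/- mice at RT, and 2.34, 2.05 and 1.51 TPM in WT and 2.66, 1.97 and 2.02 TPM in Txnip-/- mice at TN. Every TN library was above every RT library, and the genotypes overlapped at both temperatures. From RT to TN Ngfr rose by 0.71 (SE 0.20) in WT and 0.85 (SE 0.20) in Txnip-/- mice (limma, adjusted p = 0.0126 and 0.00425). The WT call was lost without RT WT replicate 3 (0.52, limma, adjusted p = 0.0527). At TN the genotype difference was 0.12, with a 95% interval of -0.21 to 0.45 (limma, adjusted p = 0.666). At RT the mean of Ngfr was under 1 TPM, and it was not tested by genotype.

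No neurotrophic factor of the list was called by genotype. At RT and at TN 5 of 12 were tested, with 1 and 0 at an unadjusted p under 0.05 (limma). Over all genes 1921 of 11980 at RT and 3306 of 12891 at TN were at such a p-value, and 1.49% and 8.66% were called. By temperature 5 were tested, and 2 were called in WT and 3 in Txnip-/- mice, beside 37.8% and 39.2% of all tested genes. Ntf3, neurotrophin 3, rose in both genotypes, by 0.65 in WT and 0.68 in Txnip-/- mice (limma, adjusted p = 0.000543 and 0.000272). Pspn, a GDNF family ligand, was called higher in WT mice (0.47), and Nrg4, a neuregulin released by brown adipocytes, was called lower in Txnip-/- mice (-0.44). Nrtn, another GDNF family ligand, was at 12.4 to 20.2 TPM throughout and was not called in any contrast.

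Of the receptors of these factors, by genotype 9 of 15 were tested at RT and 11 at TN, and none was called (limma, 1 and 4 at an unadjusted p under 0.05). Over all genes 1.49% and 8.66% were called, and 1921 of 11980 and 3306 of 12891 were at an unadjusted p under 0.05. The most abundant receptor was Ntrk3, which binds neurotrophin 3, at 65.9, 70.4 and 77.4 TPM in WT and 115.9, 70.9 and 85.1 TPM in Txnip-/- mice at RT, and 100.6, 122.7 and 87.6 TPM in WT and 139.9, 108.4 and 137.9 TPM in Txnip-/- mice at TN. In WT mice 7 of 11 were called higher at TN, namely Ngfr, Ntrk3 (0.52), Gfra2 (0.39), Gfra3 (0.37), Lifr (0.79), Erbb3 (0.72) and Erbb4 (0.53), where 31.4% of all tested genes were. Ntrk2, the receptor of brain-derived neurotrophic factor, was called lower in both genotypes, by -0.62 in WT and -0.37 in Txnip-/- mice (limma, adjusted p = 0.00104 and 0.0152). In Txnip-/- mice 7 of 11 were called higher, with Erbb2 in place of Erbb4, beside 30.9% of all tested genes, and Cntfr, the receptor of ciliary neurotrophic factor, was called lower together with Ntrk2 (-1.10, limma, adjusted p = 0.0289). Sort1, the sortilin that pairs with p75, was at 50.4 to 69.3 TPM and was not called in any contrast.

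Th, the rate-limiting enzyme of catecholamine synthesis, gave no measurable level. It was listed at 0 in 11 libraries and at 0.03 TPM in RT Txnip-/- replicate 2, and it was not tested. Dbh, which makes noradrenaline from dopamine, was at 0.07 TPM or less and Npy, a sympathetic co-transmitter, at 0.10 TPM or less. Of the 24 sympathetic neuron genes 9 were under 0.1 TPM on average, so the number of fibers cannot be read from these transcripts. The exception in level was Syp, encoding the vesicle protein synaptophysin, at 12.4, 11.1 and 11.5 TPM in WT and 6.79, 7.63 and 7.70 TPM in Txnip-/- mice at RT, and 12.03, 10.4 and 10.9 TPM in WT and 6.01, 7.52 and 6.11 TPM in Txnip-/- mice at TN. Syp was called lower in Txnip-/- mice at RT (-0.60, SE 0.08) and at TN (-0.69, SE 0.10; limma, adjusted p = 0.0256 and 0.00841), without overlap, and it was not called by temperature. The TN call held in all 7 of the TN fits with libraries left out. The RT call was lost in 6 of 7, all but the fit without RT WT replicate 3, with values of -0.66 to -0.55. Over all genes, 1 was called at RT without the 3 myelin-rich libraries and 2 without RT WT replicate 2, where Syp stood at -0.66 and -0.63 (limma, adjusted p = 0.312 and 0.105). At RT 0.726% of genes were called lower. Syp shares 875 exon bases with an antisense gene, Gm14703, and strand was not stated for the counting. Stmn2, a growth-associated protein of neurons, was at 1.44 to 2.90 TPM and was not called.

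**Figure D5:**
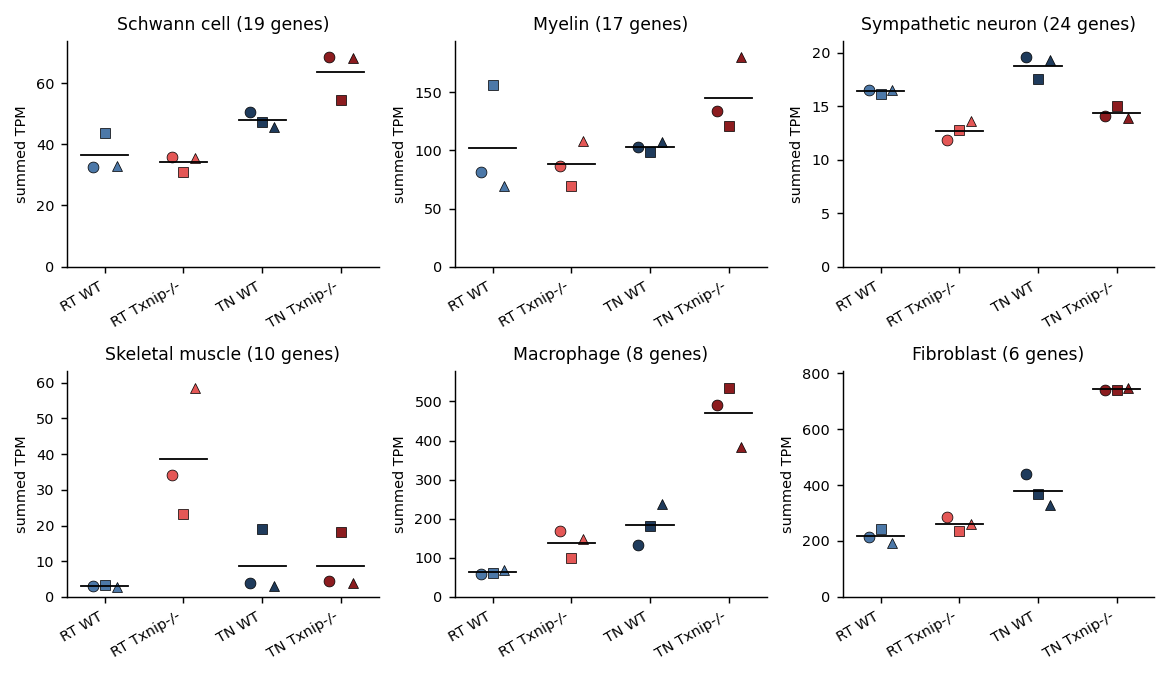
Summed TPM (vertical axes, from 0) of marker genes of Schwann cells (S100b left out), myelin, sympathetic neurons, skeletal muscle, macrophages and fibroblasts in each library (circles, squares and triangles for replicates 1, 2 and 3), with lines for group means. Schwann cell sums lie at 31.0 to 43.7 TPM at RT and 45.6 to 68.4 TPM at TN, and sympathetic sums at 11.8 to 13.6 TPM in RT Txnip-/- and 16.1 to 16.5 TPM in RT WT mice, where Syp alone averaged 7.38 and 11.7 TPM.

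No relative of S100b was called lower by genotype. S100a1, the most abundant S100 gene, was at 533.8 to 676.3 TPM and was not called in any contrast, with genotype differences of -0.13 at RT and -0.06 at TN. At RT 7 relatives were tested by genotype and 1, S100a10, a partner of annexin A2, was called, as higher in Txnip-/- mice (0.33, SE 0.06, limma, adjusted p = 0.0418), where 0.76% of all tested genes were. At TN 10 genes of the list, the receptor gene Ager among them, were tested and 3 were called, all higher, namely S100a4 (1.14, SE 0.25), S100a6 (0.71, SE 0.10) and S100a10 (0.47, SE 0.09), with adjusted p-values (limma) of 0.0281, 0.00865 and 0.0163, and 6.49% of all tested genes were called higher. With libraries left out, the RT call of S100a10 was lost in the same 6 of 7 fits as that of Syp. At TN the calls of S100a4, S100a6 and S100a10 were lost in 5, 1 and 1 of the 7 TN fits. For all 3 these included the fit without the libraries with muscle RNA, at 0.98, 0.59 and 0.39 (limma, adjusted p = 0.187, 0.0527 and 0.105). S100a4 and S100a6 are also abundant in fibroblasts and macrophages, whose markers were higher in TN Txnip-/- mice as given above. From RT to TN S100a4, S100a6, S100a8 and S100a9 were called higher in both genotypes, S100a13 lower in WT mice (-0.35), and S100a11, S100a16 and the receptor gene Ager higher in Txnip-/- mice. Of all tested genes 31.4% in WT and 30.9% in Txnip-/- mice were called higher, and 6.39% in WT mice lower.

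No olfactomedin relative of Gldn was called lower by genotype either. At RT 5 were tested and none was called (limma, 0 at an unadjusted p under 0.05), where 1.49% of all tested genes were called. At TN 3 of 5 were called higher in Txnip-/- mice, where 6.49% of all tested genes were. Fibroblast and macrophage RNA was higher in the same mice, as given above. These were Olfm1 (0.70, SE 0.12), Olfml1 (0.85, SE 0.12) and Olfml3 (0.55, SE 0.10), with adjusted p-values (limma) of 0.0145, 0.00758 and 0.0135. With libraries left out these calls were lost in 1, 1 and 2 of the same TN fits, which for all 3 included the fit without the libraries with muscle RNA, at 0.59, 0.81 and 0.54 (limma, adjusted p = 0.0731, 0.0799 and 0.111). Olfml1 was at 2.82, 2.15 and 1.89 TPM in TN WT and 5.02, 5.02 and 4.66 TPM in TN Txnip-/- mice. From RT to TN 6 genes of the list, Gldn included, were tested, and Olfm1, Olfml1, Olfml2a, Olfml2b and Olfml3 were called higher in both genotypes, beside 31.4% of all tested genes in WT and 30.9% in Txnip-/- mice.

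The genes whose profiles were nearest to S100b and Gldn were sought among 12486 genes by the root mean square difference of centered log2(TPM + 1) values over the 12 libraries. For S100b, whose own spread on this measure was 0.78, they were Tfr2 (0.32), Aldh1l1 (0.36), Fam131c (0.37), Tiam1 (0.39) and Aldh3b2 (0.40). Aldh1l1, a folate enzyme, had means of 33.9 and 12.7 TPM in WT and Txnip-/- mice at RT and 28.3 and 13.1 TPM at TN, and Tfr2, transferrin receptor 2, of 3.19 and 0.63 TPM at RT and 1.247 and 0.58 TPM at TN. For Gldn, with an own spread of 1.38, they were Pon1 (0.52), Ptgds (0.73), A830018L16Rik (0.84), S100b (0.84) and Aldh1l1 (0.85). Pon1, a paraoxonase, was at 15.5 TPM in RT WT and 17.6 TPM in TN WT against 1.76 and 2.28 TPM in Txnip-/- mice. The measure counts the size of a change as well as its shape, and it includes the genotype values by which S100b and Gldn were chosen.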

How the data were processed

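BAT RNA of 12 mice was sequenced as poly-A libraries, and each library was taken as a mouse of its own. Where that does not hold, p-values measure only technical spread. The members and gene lists were chosen with earlier results of these data known. The authors aligned single-end reads of 75 bases to mm10 with STAR 2.7.5a, counted exon reads with HOMER 4.11.1 on 1 transcript per gene, and deposited TPM, which were analysed here. The TPM of the listed genes summed to 55.38% to 57.55% of the full TPM scale. The authors also deposited log-scale (log2) values of the 6 libraries of each temperature, by a transform that is not named, used only as an alternative. For 4959 genes at RT, Mbp among them, they describe another transcript. The deposited columns with fold changes, p-values and adjusted p-values come from the authors' DESeq2 comparison and were not used. Whether counting was stranded is not given in the sources used here. Counting error could not be computed from TPM, so the spread between 3 libraries sets the precision.

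Values were tested as log2(TPM + 1) with limma 3.58.1 (R 4.3.3), its trend option on, for genes whose TPM averaged 1 or more in the fit, and p-values were adjusted over all of these by Benjamini-Hochberg. Genotype was fitted on 6 libraries a temperature, and temperature and the interaction on 12 with 4 group means. A call needed a rise over 25% or a fall over 20% and an adjusted p under 0.05, and the interaction only the latter. Intervals are 95%. The pipeline was tested on simulated data. Fits of the called list genes with libraries left out were added after seeing the data. Named genes are the members, the called genes of each list, up to 4 further genes a list by mean TPM, and the 5 profiles nearest to S100b and Gldn. Genes marking other cell types are given as sums, and some genes that the rule gives are not reported here. Clstn2, Nfasc, Dbh and Npy were named after their values were seen. Promoters came from RefSeq. Alternatives were log2(TPM + 0.1), other filters, upper-quartile scaling, median centring, the log-scale values, a replicate block, other libraries in the fit and each library left out.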

Additional observations from a re-analysis of the deposited data

How the results depend on the processing

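Of 497 alternative values of single genes, 473 were counted as unchanged, 11 changed sign, 5 became called, 2 lost the call and 6 moved in size. Unchanged values kept their direction and their side of the threshold. For S100b and Gldn by genotype and in the interaction, where no test was given, they lay within the SD between libraries of the main value. Mbp, Sox10 and Ngfr were not counted in the fits without the 3 myelin-rich libraries. The log-scale values gave -1.08 and -0.79 for S100b and -1.87 and -2.19 for Gldn at RT and TN. None of the values that changed sign had been called. Mbp by genotype at RT was 0.42 without RT WT replicate 2, 0.01 without RT Txnip-/- replicate 1 and 0.16 without RT Txnip-/- replicate 2, within a range of -0.53 to 0.42. Mbp by temperature in WT was -0.013 with upper-quartile scaling, -0.10 with median centring, and -0.17, -0.21 and -0.10 without RT WT replicate 1, RT WT replicate 3 and TN WT replicate 1, within a range of -0.21 to 0.62. Gldn by temperature was -0.0011 in WT without RT WT replicate 1 (range -0.0011 to 0.53) and 0.045 in Txnip-/- mice without TN replicate 2 (range with 1 library left out -0.13 to 0.045), and the Ngfr interaction was -0.020 without RT WT replicate 1 (range -0.020 to 0.34).

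Counts of called genes at RT (178) were 44 over all genes above 0, 272 with all 12 libraries in the fit, 2 to 159 with 1 library left out, and 1 without the 3 libraries richest in myelin RNA, a choice made after seeing the data. The low of 2 came without RT WT replicate 2, and the counts were 31, 33, 87 and 25 without RT WT replicate 1 and RT Txnip-/- replicates 1, 2 and 3. At TN the count (1116) was 621 over all genes above 0, 456 to 1005 with 1 library left out (703 and 684 without WT replicates 1 and 3, 456 and 464 without Txnip-/- replicates 1 and 2), and 130 without the 2 libraries with Acta1 above 1 TPM, also chosen after seeing the data. The called Schwann cell and myelin genes at TN (4) were 2 over all genes above 0, 1 to 4 with 1 library left out (1 without Txnip-/- replicate 1, 2 without WT replicate 1 or 2) and 0 without the libraries with Acta1. By temperature in WT (5) they were 2 among genes at 1 TPM or more in each library, 3 with median centring, 3 to 8 with 1 library left out (3 without RT replicate 1, RT replicate 3 or TN replicate 1, 8 without RT replicate 2) and 10 without the 3 myelin-rich libraries. The interaction (1 gene) gave 1 to 6 genes with 1 library left out (6 without RT WT replicate 1, 3 without RT or TN Txnip-/- replicate 1, 2 without TN WT replicate 3 or TN Txnip-/- replicate 2) and 0 without the 3 myelin-rich libraries. The share of higher calls was 83.08% in WT and 78.88% in Txnip-/- mice by temperature, 51.13% and 48.51% with median centring, and 70.41% and 68.79% with upper-quartile scaling. The cause of these changes was not tested, beyond the fewer libraries in a fit.

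The replicate numbers did not pair the libraries, as same-numbered deviations correlated at 0.297, -0.022 and 0.21 at RT and 0.042, 0.023 and -0.036 at TN across genes. With the replicate block 100 genes were called at RT and 977 at TN, and no call of a member changed. Levels under 1 TPM, as for Gldn in Txnip-/- mice and Th in all groups, rest on few reads.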
